A study of Rattus norvegicus with 20 samples.

Results

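The genes described here mark the wall of the blood vessels in the choroid plexus, the secretory tissue in the brain ventricles that produces cerebrospinal fluid. They are Sox18 and Cd93 for the endothelium, Rgs5 for pericytes, and Tagln and Myh11 for smooth muscle cells. The 5 genes were taken by symbol from the 32883 Ensembl genes measured in each rat, and all 5 had a level above 0 in all 20 libraries and entered every test. The RNA came from the choroid plexus of the lateral and 4th ventricles of female Zucker rats at 16 weeks of age, with 1 library per rat. An untreated cohort held 6 lean rats (+/fa, rats 1 to 6) and 6 obese rats (fa/fa, rats 7 to 12). An injected cohort held 4 lean control rats (+/fa, rats 13 to 16), given the sesame oil vehicle (VEH), and 4 obese + TT rats (fa/fa, rats 17 to 20), given testosterone propionate in the same oil. The fa allele disrupts the leptin receptor, so the lean rats of both cohorts carried 1 copy of it and the obese rats carried 2. The estrous cycle of the rats was not controlled. The obese + TT rats differed from the lean control rats in genotype and in testosterone at once, so these cannot be told apart. Levels are given in TPM (transcripts per 1000000, a value per length and per library).

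The vessels of the choroid plexus are unusual for the brain. The capillaries of its stroma have a fenestrated endothelium that lets plasma fluid through to the epithelium, pericytes lie on these capillaries, and smooth muscle cells surround the arterioles that feed them. SOX18 is a transcription factor of endothelial cells, CD93 a surface receptor of endothelial cells that some immune cells also carry, RGS5 a regulator of G protein signalling that is high in pericytes, TAGLN (transgelin) an actin-binding protein of smooth muscle, and MYH11 the smooth muscle myosin heavy chain. In whole tissue, fewer cells of a type and less RNA per cell cannot be told apart.

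The libraries had the profile of choroid plexus in each group. Ttr, the transthyretin transcript of the epithelium, made up 25.8 to 39.3% of all TPM in a library, and all 10 epithelial markers examined were above 0 in all 20 libraries. The share of Ttr was 31.2 to 39.3% in the untreated cohort and 25.8 to 30.5% in the injected cohort, without overlap. Between 14968 and 16860 genes were above 0 TPM in a library. Since TPM keeps no depth, the reads that support each level are not known.

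The genes whose levels over all rats, differences between the groups included, were most like those of Rgs5 were Rgcc, Igfbp3, Eng, Plvap and Dcn. Eng and Plvap are endothelial genes and Dcn is a fibroblast gene. Sequences were sought for vessel genes only, and the bases before the start sites of Rgs5, Plvap and Eng are shown. The sequences are from RefSeq. The table used here held 7 of the 15 vessel genes examined, with Rgs5 among the 5 markers. The 250 bases upstream of the RefSeq start, on the strand of the gene and in the GRCr8 build, lie at chr13:84380827-84381076 (plus strand) for Rgs5, chr16:18231280-18231529 (minus strand) for Plvap and chr3:36332029-36332278 (plus strand) for Eng. Capitals mark TTCCT, or AGGAA where it lies on the other strand. These letters hold TTCC or GGAA, the core to which ETS family factors bind. That core also occurs without capitals, as near the start of the Rgs5 sequence (cggaagt), and such places were not counted.
Rgs5: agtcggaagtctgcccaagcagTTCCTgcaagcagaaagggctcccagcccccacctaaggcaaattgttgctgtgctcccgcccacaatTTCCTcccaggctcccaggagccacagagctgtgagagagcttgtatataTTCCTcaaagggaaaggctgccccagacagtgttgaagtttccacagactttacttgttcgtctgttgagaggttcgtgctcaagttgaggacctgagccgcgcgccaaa
Plvap: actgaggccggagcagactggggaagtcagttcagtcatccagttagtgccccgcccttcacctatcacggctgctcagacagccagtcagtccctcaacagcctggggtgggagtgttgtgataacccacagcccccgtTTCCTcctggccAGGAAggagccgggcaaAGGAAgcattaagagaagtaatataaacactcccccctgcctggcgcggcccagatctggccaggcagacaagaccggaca
Eng: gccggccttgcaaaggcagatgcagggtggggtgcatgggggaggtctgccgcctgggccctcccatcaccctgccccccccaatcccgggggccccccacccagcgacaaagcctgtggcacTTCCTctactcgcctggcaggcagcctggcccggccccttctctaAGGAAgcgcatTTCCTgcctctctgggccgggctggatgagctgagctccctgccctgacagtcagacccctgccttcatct
Each of these sequences holds 3 matches to TTCCT, counted over both strands and without overlap. At least 1 match is found in 60.99% of the 33469 RefSeq rat promoters of this length, and the share with 3 or more was not counted. Among the other vessel genes with a sequence, Tpm2 held 1 match, Tpm1 2, Ednrb 0 and Tgfb2 1. ACAAT, part of the sequence that SOX factors bind, occurs in 30.02% of all promoters. It was found 2 times before Rgs5 over both strands, and in none of the other 6 vessel genes with a sequence. The CArG box, bound by serum response factor in smooth muscle genes, is in 1.5% of all promoters and in none of these 7. These matches describe the letters in this window only.

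The question put to the untreated cohort was whether obese rats differed from lean rats, and for the vessel markers the difference lay mainly in Sox18. Levels entered limma as log2(TPM + 0.1), p-values were adjusted by Benjamini-Hochberg over all genes tested, and the word called is used for genes with an adjusted p under 0.05. SE stands for the standard error of a log2 fold change. The pseudocount makes the fold change of a low gene smaller than its ratio of TPM. No gene of 15176 was called between obese and lean rats (0%), so 0 of the 5 markers were, although 1466 genes (9.66%) had an unadjusted p under 0.05. The groups were without overlap for 0 of the 5 markers and for 0.54% of all genes.

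Among the endothelial genes, Sox18 (ENSRNOG00000016248) ran from 2.40 to 5.12 TPM in the lean rats with a median of 3.28. In the obese rats it ran from 4.85 to 8.75 TPM with a median of 6.43. The highest lean values, 5.12 TPM in rat 5 and 4.93 TPM in rat 6, lay above the lowest obese value, 4.85 TPM in rat 7, so the groups overlapped by these 3 rats. The means were 3.68 ± 1.10 TPM (SD, n = 6) in lean and 6.68 ± 1.34 TPM (SD, n = 6) in obese rats, a difference of 81.6%. The log2 fold change was 0.87 (SE 0.18, 95% interval 0.47 to 1.26), with an unadjusted p of 0.000316 and an adjusted p of 0.208 in limma. It stood at rank 175 from the highest among the 15176 genes. The exact two-sided permutation test of this gene alone gave p = 0.00649, where 0.00216 is the smallest p for 6 rats against 6. The study lists Sox18 among its changed genes of this cohort, so these values are not independent evidence of its direction. Its lists of changed genes came from DESeq2 on raw counts at a false discovery rate under 0.05. That test differs from limma on TPM, so the absence of calls here cannot be set directly against those lists.

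Cd93 (ENSRNOG00000024799) did not follow Sox18. It ran from 3.52 to 6.14 TPM in the lean rats (median 5.17) and from 3.01 to 7.30 TPM in the obese rats (median 4.80). The obese rats spread around the lean ones on either side, with 2 of them above all lean rats and 2 below. The means were 5.11 ± 0.88 and 5.00 ± 1.75 TPM (SD, n = 6 of each). Its log2 fold change was -0.09 (95% interval -0.53 to 0.36, adjusted p = 0.938 in limma).

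The pericyte gene Rgs5 (ENSRNOG00000002730) was the most abundant of the 5 markers in this cohort. It ran from 91.7 to 119 TPM in the lean rats (median 94.4) and from 72.6 to 121.9 TPM in the obese rats (median 97.2), with full overlap. The means were 99.7 ± 11.1 and 99.8 ± 19.1 TPM (SD, n = 6 of each). The 95% interval of the log2 fold change, -0.26 to 0.24 around -0.01, was the narrowest of the 5 (adjusted p = 0.986 in limma).

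Of the smooth muscle genes, Tagln (ENSRNOG00000017628) ran from 47.8 to 63.3 TPM in the lean rats (median 54.7) and from 48.8 to 109 TPM in the obese rats (median 66.6). The obese rats 7, 11 and 12, at 90.0, 72.6 and 109 TPM, lay above all lean rats, while the other 3 were within the lean range. Tagln had a log2 fold change of 0.33 (SE 0.17, 95% interval -0.02 to 0.69, adjusted p = 0.561 in limma). Myh11 (ENSRNOG00000057880) ran from 7.19 to 10.2 TPM in the lean rats (median 8.00) and from 7.20 to 13.5 TPM in the obese rats (median 9.06). Its highest values were those of the obese rats 11 and 12, at 12.9 and 13.5 TPM, while obese rat 7, at 7.83 TPM, lay within the lean range. For Myh11 the log2 fold change was 0.19 (SE 0.16, 95% interval -0.14 to 0.53, adjusted p = 0.744 in limma). Without obese rat 12 it was 0.10 for Myh11 and 0.20 for Tagln, and without obese rat 11 it was 0.11 for Myh11.

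**Figure D1:**
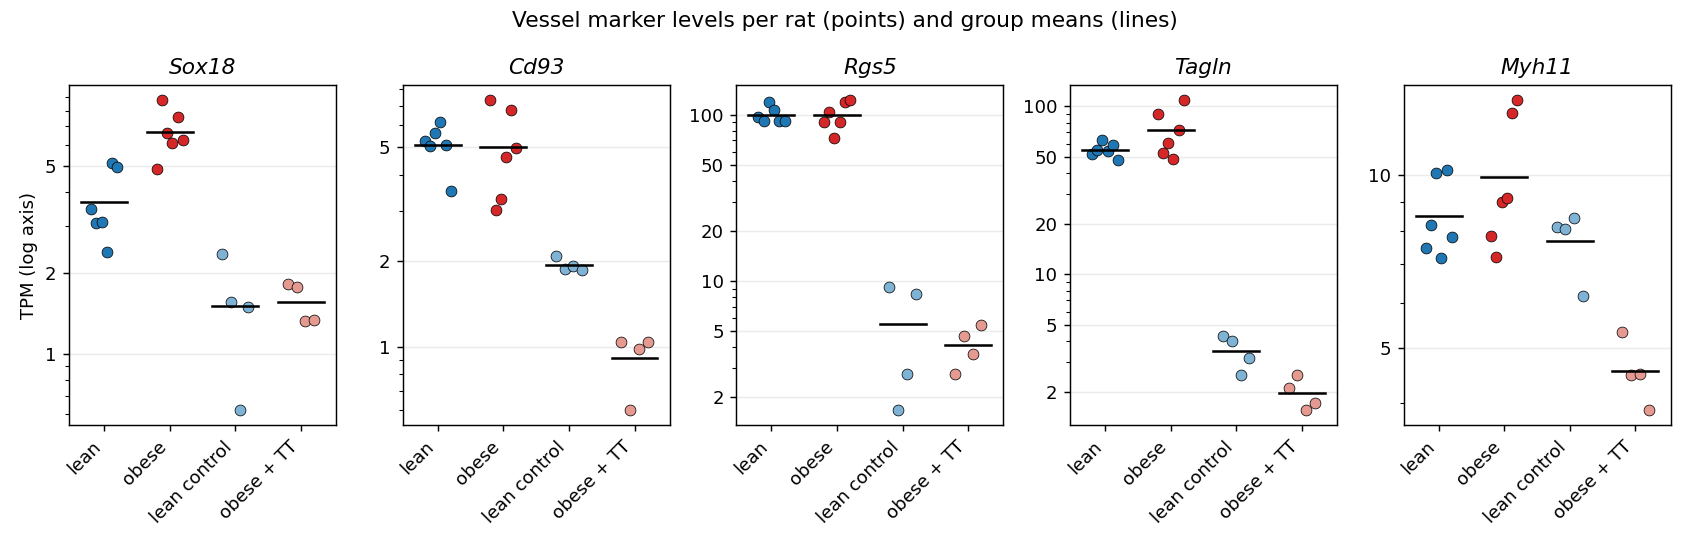
Level of each vessel marker in TPM (log axis, a scale of its own in each panel), with 1 point per rat and a line at the mean of each group (n = 6 lean, 6 obese, 4 lean control and 4 obese + TT). For Sox18, 5 of the 6 obese rats lie above all lean rats, Cd93, Tagln and Myh11 are lower in every obese + TT than lean control rat, and Rgs5 and Tagln lie far lower in both injected groups.

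In the injected cohort the comparison asked how obese rats given testosterone differed from lean rats given the vehicle. Here Cd93, Tagln and Myh11 were lower in all 4 obese + TT rats than in all 4 lean control rats, and Sox18 and Rgs5 overlapped. Of all 15259 genes tested, 4.02% had groups without overlap and 1.66% were lower without overlap, against 3 of the 5 markers. No gene passed the adjusted threshold (0%), and 1134 genes (7.43%) had an unadjusted p under 0.05, these 3 markers among them. The study lists Cd93 and Myh11 among its changed genes of this cohort, again from DESeq2 on counts, so their direction here is not independent evidence.

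Cd93 was at 2.08, 1.87, 1.91 and 1.85 TPM in lean control rats 13 to 16. It was at 1.04, 0.60, 0.98 and 1.04 TPM in obese + TT rats 17 to 20. The lean control rats were close to each other, and rat 18 was the lowest of the obese + TT rats. The means were 1.93 ± 0.10 and 0.92 ± 0.21 TPM (SD, n = 4 of each). This gave a log2 fold change of -1.02 (SE 0.21, 95% interval -1.49 to -0.56, adjusted p = 0.375 in limma). The unadjusted p was 0.000641 in limma, and with a pseudocount of 1 TPM the log2 fold change was -0.62.

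Tagln was at 4.29, 4.03, 2.53 and 3.17 TPM in the lean control rats and at 2.10, 2.52, 1.56 and 1.71 TPM in the obese + TT rats. The groups nearly met, at 2.53 TPM in lean control rat 15 and 2.52 TPM in obese + TT rat 18. The means were 3.50 ± 0.81 and 1.97 ± 0.43 TPM (SD, n = 4 of each). On the log2 scale Tagln differed by -0.79 (SE 0.21, 95% interval -1.27 to -0.32, adjusted p = 0.510 in limma). The unadjusted p was 0.00406 in limma.

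Myh11 was at 8.14, 8.08, 8.43 and 6.15 TPM in the lean control rats and at 5.34, 4.49, 4.51 and 3.90 TPM in the obese + TT rats. Lean control rat 16 stood apart from the other lean control rats but still above every obese + TT rat. The means were 7.70 ± 1.04 and 4.56 ± 0.59 TPM (SD, n = 4 of each), and the difference was -0.74 on the log2 scale (SE 0.14, 95% interval -1.05 to -0.44, adjusted p = 0.375 in limma). The unadjusted p was 0.000325 in limma. For each of Cd93, Tagln and Myh11 the exact two-sided permutation test gave p = 0.0286, the smallest that 4 rats against 4 allow.

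Sox18 showed no such separation. It was at 2.35, 1.56, 0.62 and 1.49 TPM in the lean control rats and at 1.82, 1.77, 1.33 and 1.34 TPM in the obese + TT rats, with the obese + TT values inside the lean control range. The log2 fold change of 0.17 had a 95% interval from -0.59 to 0.93 (adjusted p = 0.942 in limma). Lean control rat 15 was the lowest of all 20 rats, and the value was -0.18 without it.

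Rgs5 was at 9.25, 1.68, 2.74 and 8.36 TPM in the lean control rats and at 2.75, 4.64, 3.63 and 5.43 TPM in the obese + TT rats. Lean control rats 13 and 16 were high and rats 14 and 15 low, with all obese + TT rats between them. The 95% interval of the log2 fold change ran from -1.25 to 0.99 around -0.13 (adjusted p = 0.970 in limma), and the sign turned to 0.22 without lean control rat 13, 0.18 without lean control rat 16 and 0.04 without obese + TT rat 17. With this spread, the values do not settle whether Rgs5 was higher, lower or unchanged in the obese + TT rats.

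Whether the contrasts of the 2 cohorts differed from each other was tested with all 20 libraries in a single fit. No gene of 15406 was called (0%), and 1288 genes (8.36%) had an unadjusted p under 0.05. The contrast of obese + TT with lean control rats minus that of obese with lean rats was -1.13 for Tagln (SE 0.27, unadjusted p = 0.000532, adjusted p = 0.248 in limma). It was -0.94 for Myh11 (SE 0.23, adjusted p = 0.285 in limma) and -0.94 for Cd93 (SE 0.31, adjusted p = 0.425 in limma). For Sox18 it was -0.70 (SE 0.37, adjusted p = 0.639 in limma), and -0.46 without lean control rat 13. Rgs5 had the smallest value, -0.12 (SE 0.47, adjusted p = 0.970 in limma). All 5 values were negative, as were those of 7882 of all 15406 genes tested, and none passed the adjusted threshold. Sox18, Cd93 and Myh11 stand in the study's lists of changed genes, so the shared sign is not independent evidence.

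**Figure D2:**
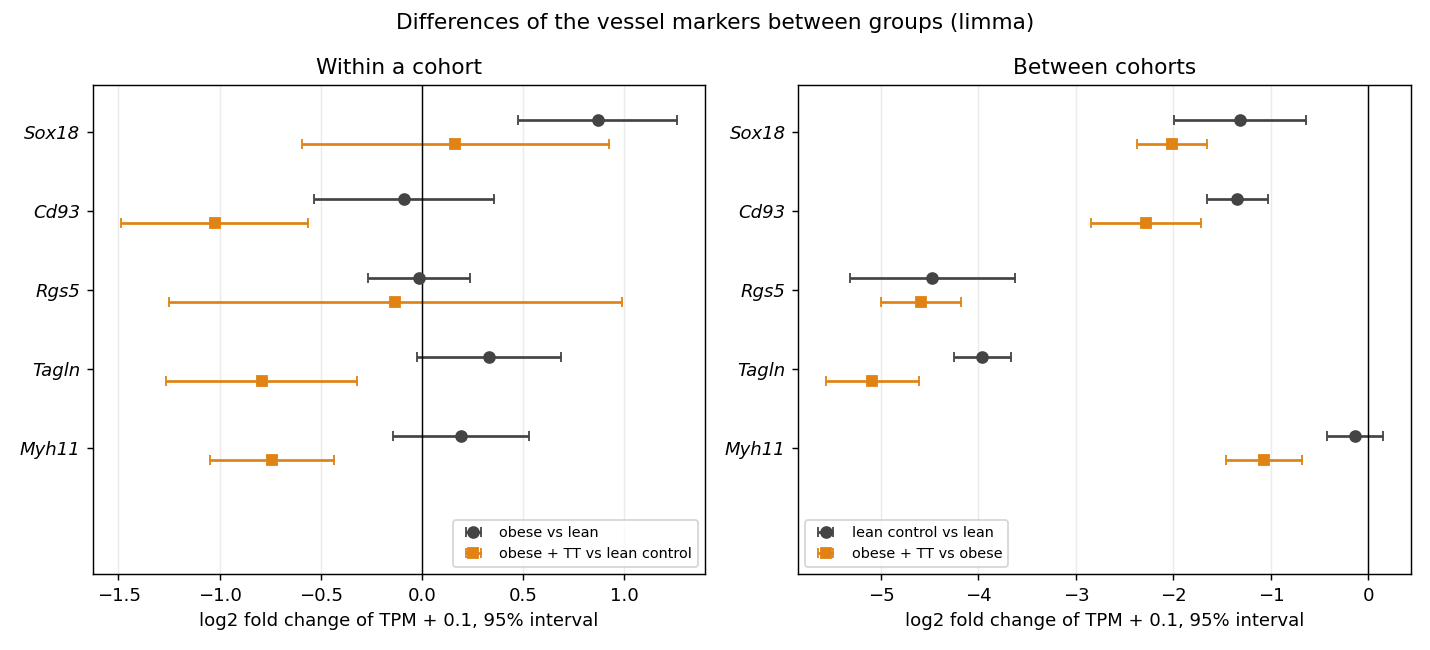
Log2 fold change of TPM + 0.1 for the 5 vessel markers with its 95% interval from limma, within each cohort (left) and between the cohorts (right, on a wider axis). Left, the interval of obese against lean rats lies wholly above 0 for Sox18 only, and that of obese + TT against lean control rats lies wholly below 0 for Cd93, Tagln and Myh11. Right, Rgs5 and Tagln lie between -3.96 and -5.09, and Myh11 in lean control against lean rats lies near 0.

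Across the 4 groups the largest differences were between the cohorts. Rgs5 and Tagln were lower by more than 1 order of magnitude in the injected rats, Sox18 and Cd93 were lower by a few fold, and Myh11, with TPM as deposited, was called lower in the obese + TT but not in the lean control rats. These comparisons join the cohort, the injections and, for the obese rats, testosterone, which cannot be told apart. They share no rats with each other, but each shares its rats with the comparisons within the cohorts.

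In lean control against lean rats, 4 of the 5 markers fell, where 58.2% of the 15326 genes tested were called and 16.5% fell. The mean of Rgs5 was 99.7 TPM in lean and 5.51 ± 3.85 TPM (SD, n = 4) in lean control rats, 18.1-fold lower, with a log2 fold change of -4.47 (SE 0.39, adjusted p = 1.31e-06 in limma). This was the 28th lowest of all genes tested. The mean of Tagln went from 55.2 ± 5.40 TPM (SD, n = 6) to 3.50 TPM, 15.7-fold lower, with a log2 fold change of -3.96 (SE 0.13, adjusted p = 3.08e-09 in limma). Cd93 fell by 1.34 on the log2 scale (SE 0.14, adjusted p = 6.85e-06 in limma). Sox18 fell by 1.31 on the log2 scale (SE 0.31, adjusted p = 0.00299 in limma). In each of these 4 genes the lean control rats lay below all lean rats, against 10.7% of all genes (44.8% in both directions). The exact permutation test, two-sided, gave p = 0.00952 for each, which is the smallest for 4 rats against 6.

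Myh11 did not share that difference. Its means were 8.50 ± 1.34 TPM (SD, n = 6) in lean and 7.70 TPM in lean control rats, and 3 of the 4 lean control rats lay within the lean range. On the log2 scale it differed by -0.14 (SE 0.13, 95% interval -0.42 to 0.15, adjusted p = 0.390 in limma), and by -0.03 without lean control rat 16. The median of all genes was 0.24 in this comparison, and relative to it Myh11 was at -0.38. With a scaling that moves this median near 0, Myh11 was called lower (log2 fold change -0.43 and adjusted p = 0.0106 in limma after median ratio scaling). Sox18, Cd93, Rgs5 and Tagln were at -1.56, -1.59, -4.72 and -4.20 relative to the median and fell under every scaling tried.

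All 5 markers fell in obese + TT against obese rats, where 58.1% of the 15389 genes tested were called and 16.4% fell. Every obese + TT rat was below every obese rat for all 5, against 11.7% of all genes (45.8% in both directions), and the exact permutation test again gave p = 0.00952 for each. Tagln showed the largest difference, from 72.2 ± 23.2 TPM (SD, n = 6) to 1.97 TPM, 36.6-fold lower, with a log2 fold change of -5.09 (SE 0.22, adjusted p = 1.79e-08 in limma). It was the 7th lowest of all genes tested. Rgs5 was 24.3-fold lower at 4.11 ± 1.17 TPM (SD, n = 4), with a log2 fold change of -4.59 (SE 0.19, adjusted p = 1.15e-08 in limma), the 20th lowest. Cd93 was 5.46-fold lower, with a log2 fold change of -2.28 (SE 0.26, adjusted p = 1.91e-05 in limma). Sox18 was 4.27-fold lower, with a log2 fold change of -2.02 (SE 0.17, adjusted p = 2.35e-06 in limma). Myh11 was 2.18-fold lower, with a log2 fold change of -1.07 (SE 0.18, adjusted p = 0.000289 in limma). The median of all genes was 0.25 here, and relative to it the 5 markers lay between -5.33 and -1.32.

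The balance of rising and falling calls over all genes between the cohorts depended on the scaling. With TPM as deposited 6394 genes rose and 2531 fell in lean control against lean rats, and after median ratio scaling 4257 rose and 4794 fell. Between obese + TT and obese rats these were 6418 and 2523 with TPM, and 4235 and 4602 after median ratio scaling.

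The order of the groups therefore differed between the markers. Sox18 was highest in obese rats, then lean rats, with 3 rats in the overlap, and lowest in the obese + TT and lean control rats, which did not differ beyond their spread. Cd93, Rgs5 and Tagln overlapped between lean and obese rats and were lower in the injected groups, with Cd93 and Tagln lowest in the obese + TT rats and Rgs5 overlapping between both injected groups. For Myh11 the obese, lean and lean control rats overlapped, and the obese + TT rats were below all of them.

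The smooth muscle genes did not move in proportion. Tagln exceeded Myh11 in TPM in all 12 untreated rats, with a median ratio of 6.50 in lean rats (range 5.75 to 7.55) and 7.04 in obese rats (range 5.35 to 11.5). In the injected rats Tagln was below Myh11, with a median ratio of 0.507 in lean control rats (range 0.300 to 0.527) and 0.416 in obese + TT rats (range 0.346 to 0.561). The ratio of Rgs5 to Tagln overlapped between all groups and spread more in the injected rats. Its median was 1.87 in lean (range 1.56 to 1.97) and 1.43 in obese rats (range 1.01 to 1.96), and 1.62 in lean control (range 0.417 to 2.64) and 2.08 in obese + TT rats (range 1.31 to 3.18). A ratio within a library does not depend on the scaling between libraries.

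**Figure D3:**
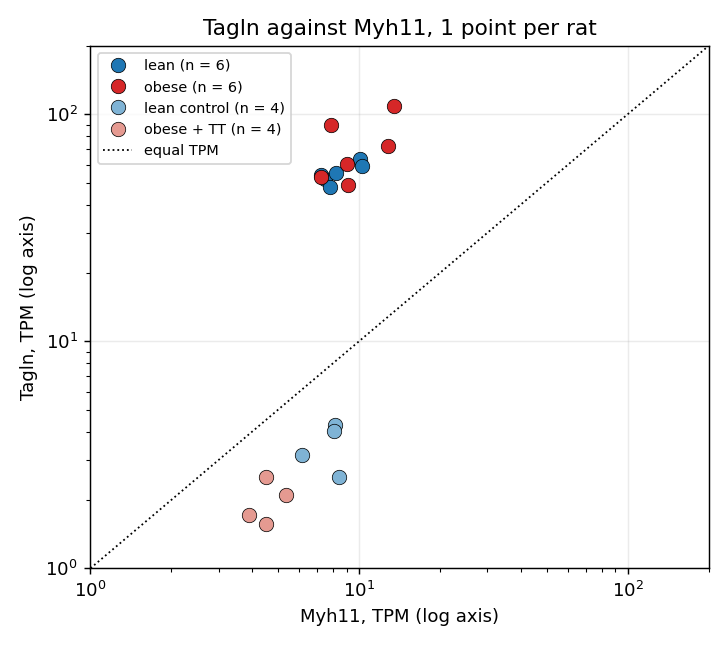
Tagln against Myh11 in TPM with 1 point per rat (both axes log, the dotted line marks equal TPM). The 12 untreated rats lie above the line and the 8 injected rats below it, with 3 of the 4 lean control rats in the Myh11 range of the untreated rats, and lean control rat 16 and all obese + TT rats to the left of it.

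Other genes of the vessel wall, and ligands and receptors that take part in vessel signalling, were taken from lists of known genes. Symbols were at hand for 2616 of the 32883 genes, which left 3 of 30 endothelial genes, 0 of 12 pericyte genes, 4 of 18 smooth muscle genes and 3 of 21 vessel ligands and receptors. The pericyte signal was therefore read from Rgs5 alone. All 10 of these genes were above 0 in every library.

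The endothelial genes were Plvap, which forms the diaphragms of fenestrated capillaries, Eng (endoglin), a co-receptor for transforming growth factor beta, and Rasip1, needed for vessel lumen formation. All 3 fell in both comparisons between the cohorts, where 16.5% and 16.4% of all genes fell. Plvap was at 45.6 ± 4.22 TPM (SD, n = 6) in lean and 5.25 ± 3.96 TPM (SD, n = 4) in lean control rats, with a log2 fold change of -3.41 (adjusted p = 7.99e-06 in limma). Eng changed by -2.76 (adjusted p = 3.15e-06 in limma) and Rasip1 by -2.02 (adjusted p = 7.26e-05 in limma). For obese + TT against obese rats the values were -3.43, -2.97 and -1.90 for Plvap, Eng and Rasip1, all called.

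Within the cohorts none of the 3 was called. In obese against lean rats, Eng had a log2 fold change of 0.33 (unadjusted p = 0.00650, adjusted p = 0.314 in limma) and Rasip1 of 0.27 (unadjusted p = 0.0331, adjusted p = 0.473 in limma). Both had the direction of Sox18, while the endothelial marker Cd93 was at -0.09. Of all 15176 genes, 8446 were higher there and 9.66% had an unadjusted p under 0.05. The 3 genes had, in obese + TT against lean control rats, log2 fold changes from 0.10 to 0.39 with no unadjusted p under 0.05. The sign of Plvap and Eng was not stable, since their mean TPM was lower in the obese + TT rats, 4.66 against 5.25 TPM for Plvap and 2.40 against 2.45 TPM for Eng. Among the lean control rats, Plvap was at 10.6 TPM in rat 13 and 5.85 TPM in rat 16 against 2.90 and 1.68 TPM in rats 14 and 15. Eng was at 4.33 and 2.69 TPM in rats 13 and 16 against 1.32 and 1.45 TPM in rats 14 and 15. These are the same rats in which Rgs5 was high and low.

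The smooth muscle genes at hand encode contractile proteins that other cells also make, namely Myl9 (a myosin regulatory light chain), Tpm1 and Tpm2 (tropomyosins) and Cald1 (caldesmon). In lean control against lean rats Myl9 fell by 1.00 on the log2 scale and Tpm1 fell by 0.70 on the log2 scale, while Tpm2 (-0.27, adjusted p = 0.0642 in limma) and Cald1 (-0.21, adjusted p = 0.0536 in limma) were not called. Of the 4, 3 fell in obese + TT against obese rats, with -1.06 for Myl9, -0.88 for Tpm1 and -0.49 for Tpm2. Of all genes, 16.5% and 16.4% fell in these comparisons. After median ratio scaling all 4 fell in each comparison, where 31.3% and 29.9% of all genes fell. None was called within a cohort, and Tpm2 had the lowest unadjusted p there, 0.0509 in limma for a log2 fold change of -0.29 in obese + TT against lean control rats.

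The ligand and receptor genes were higher in the injected rats, where 41.7% of all genes rose in each comparison between the cohorts. Ednrb, an endothelin receptor, and Tgfb2, a ligand of the transforming growth factor family, rose in both. Their log2 fold changes were 0.73 and 1.20 in lean control against lean rats and 1.06 and 1.19 in obese + TT against obese rats. Vegfa, the growth factor that maintains fenestrated endothelium, rose by 0.61 in lean control against lean rats (adjusted p = 2.94e-05 in limma). It was at 0.24 in obese + TT against obese rats (adjusted p = 0.135 in limma), close to the median of all genes, 0.25, and at -0.04 after median ratio scaling. Within the injected cohort Vegfa was at 63.4, 69.2, 64.8 and 72.4 TPM in the lean control rats and at 50.8, 48.0, 54.7 and 59.7 TPM in the obese + TT rats, without overlap. This amounted to a log2 fold change of -0.34 (unadjusted p = 0.00134, adjusted p = 0.385 in limma). Tgfb2 was also lower without overlap there, with means of 97.0 against 105.9 TPM, while Ednrb overlapped. The log2 fold change of Tgfb2 was -0.13 (adjusted p = 0.715 in limma). Of all 15259 genes tested, 4.02% had groups without overlap and 1.66% were lower without overlap. Which cells of the tissue made Vegfa, Ednrb and Tgfb2 was not tested, so their levels cannot be assigned to the vessel wall.

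**Figure D4:**
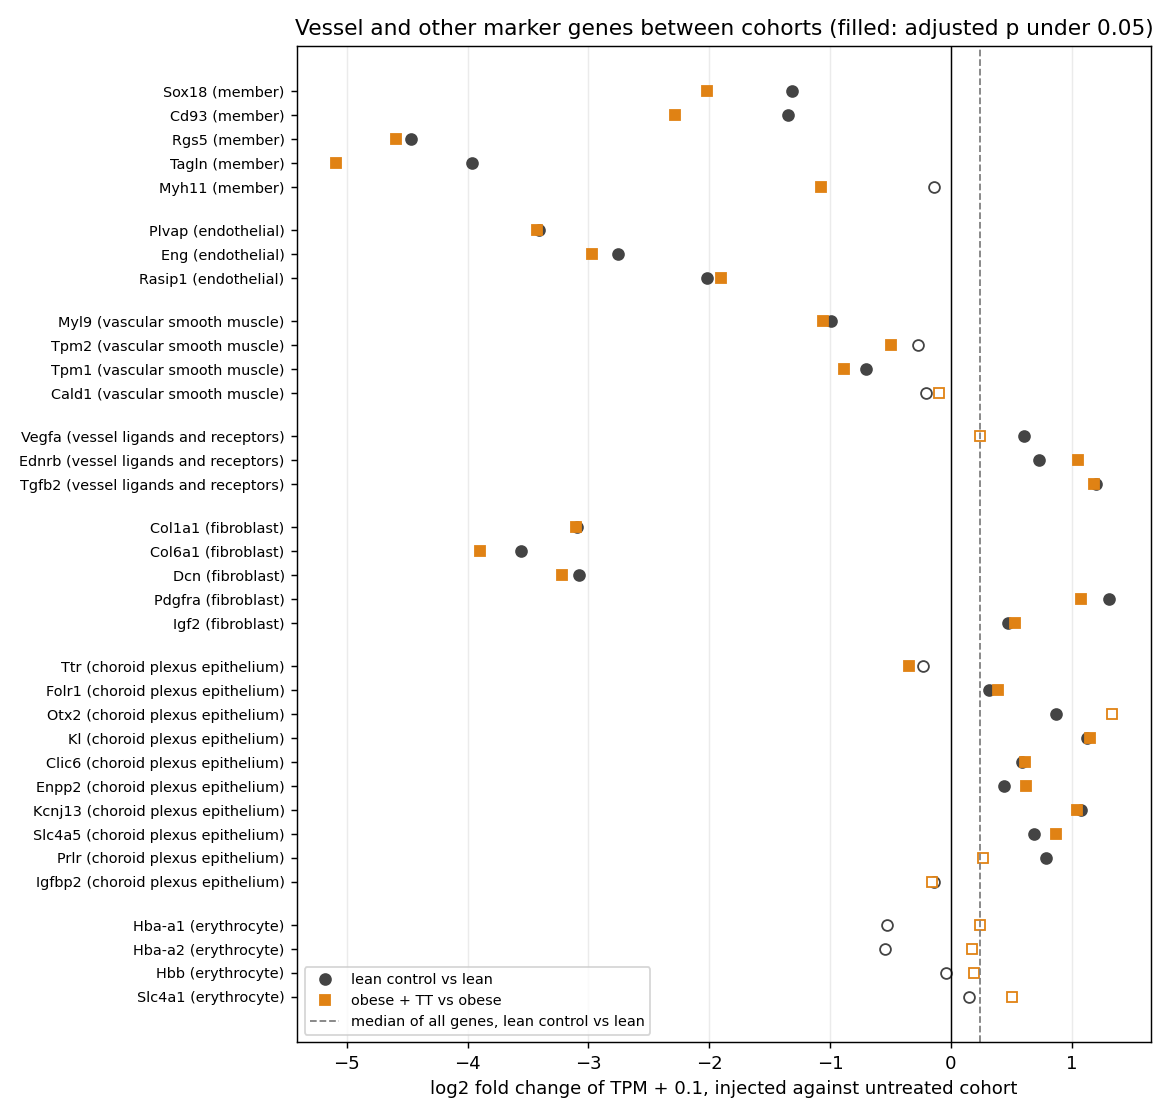
Log2 fold change of TPM + 0.1 for the vessel markers and for other marker genes, in lean control against lean rats (circles) and obese + TT against obese rats (squares), filled where the adjusted p was under 0.05 in limma. The dashed line marks the median of all genes in lean control against lean rats, 0.24. Rgs5, Tagln, Plvap, Eng, Col1a1, Col6a1 and Dcn lie below -2.5 in each comparison, and most epithelial genes lie above 0.

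Markers of other cell types also moved between the cohorts. Of the genes listed for fibroblasts, 5 of 10 had a symbol. In lean control against lean rats Col1a1, Col6a1 and Dcn fell, with log2 fold changes of -3.10, -3.56 and -3.08. Pdgfra and Igf2 rose, with 1.31 and 0.48. The same 3 fell and the same 2 rose in obese + TT against obese rats. Of all genes, 16.5% fell in lean control against lean and 16.4% in obese + TT against obese rats, and 41.7% rose in each. The summed level of the 5 genes of this list ran from 1324 to 1653 TPM in the untreated and from 1819 to 2208 TPM in the injected rats. Igf2 made up most of this sum (mean 1410 of 1538 TPM in lean rats). The sum therefore follows Igf2 and does not show the lower Col1a1, Col6a1 and Dcn. Which cells of the tissue made each gene was not tested, so the rise of Igf2 and Pdgfra cannot be assigned to fibroblasts. All 10 epithelial genes had a symbol, and 8 rose in lean control against lean rats, where 41.7% of all genes rose. After median ratio scaling 6 rose and 1 fell, where 27.8% of all genes rose and 31.3% fell. In obese + TT against obese rats 6 of the 10 rose and Ttr fell (-0.35), where 41.7% of all genes rose and 16.4% fell. There 5 rose and 2 fell after median ratio scaling, where 27.5% of all genes rose and 29.9% fell. The erythrocyte genes Hba-a1, Hba-a2, Hbb and Slc4a1 (4 of 6 with a symbol) were not called in either comparison between the cohorts with TPM as deposited. After median ratio scaling 2 of the 4 fell in lean control against lean rats. Their sum ran from 3105 to 7019 TPM in the untreated and from 2168 to 8388 TPM in the injected rats. No listed marker of macrophages or brain parenchyma had a symbol at hand. The part of these cell types in the differences of the vessel markers was not tested.

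Within the cohorts the erythrocyte genes stood beside the vessel markers as well. All 4 were higher in obese than in lean rats, with log2 fold changes from 0.35 to 1.01, and none was called. Each had an unadjusted p under 0.05 in limma, as had 9.66% of all genes. All 4 were also higher in obese + TT than in lean control rats, by 0.67 to 1.37. Of these, 3 had an unadjusted p under 0.05 in limma, against 7.43% of all genes. The largest difference in each comparison was that of Slc4a1, a low gene with group means of 0.18 to 0.71 TPM. Their part in the higher Sox18 or the lower Cd93, Tagln and Myh11 was not tested.

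How the vessel markers varied together among rats of 1 group differed between the cohorts for some pairs. As deviations of log2(TPM + 0.1) from the mean of the rat's own group, the highest Pearson correlation over the 20 libraries among the 10 pairs was 0.46, between Tagln and Myh11, and the other pairs lay between -0.35 and 0.32. Some pairs had opposite signs in the cohorts, which the pooled values do not show. Sox18 and Tagln were at -0.31 over the 12 untreated and 0.84 over the 8 injected libraries, and Rgs5 and Myh11 at 0.52 and -0.58. In the untreated libraries Cd93 was at 0.59 with Tagln and at -0.58 with Sox18, against -0.42 and -0.04 in the injected ones. The correlations were also taken without the 2 libraries of a cohort that lay farthest from the median of the pair's first gene. Cd93 with Tagln was then at 0.37 and 0.21, without opposite signs. Sox18 with Cd93 was at -0.58 and -0.46. Sox18 with Tagln (-0.37 and 0.83) and Rgs5 with Myh11 (0.44 and -0.95) kept opposite signs. These values are descriptions with no test, since the libraries share tissue handling and composition.

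By the same measure, the genes most like each marker were sought among 2568 genes with a symbol and a mean of at least 1 TPM. For Rgs5 they were Mt-atp8 (0.86), Eng (0.85), Ltbp4 (0.83), Rgcc (0.81) and Acsm3 (0.81). Such correlations give most weight to the groups with the largest spread. The SD of Rgs5 was 69.9% of the mean in the lean control rats (1.68 to 9.25 TPM). It was 11.1% in lean, 19.1% in obese and 28.4% in obese + TT rats. For Tagln they were Lamb1 (0.88), Cyb5r3 (0.80), Sparc (0.78), Arl1 (0.77) and Cs (0.75). Lamb1 encodes a laminin chain of basement membranes, and Sparc a matrix protein. For Sox18 they were Bhmt2, Ypel3, Tmem98, Spop and Med25, with correlations of 0.66 to 0.68, the lowest of the 5 markers. For Cd93 they were Tm9sf3 (0.81), Abhd2, G3bp2, Hr and Stt3a (0.78), and for Myh11 Hp1bp3 (0.81), AABR07044388.2, Ranbp2, Scara5 and Thrap3 (0.73).

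Without subtracting the group means, the measure also takes in the differences between the groups. Rgs5 was then nearest to Rgcc, Igfbp3, Eng, Plvap and Dcn (0.98 to 0.99 over the 20 libraries). Tagln was nearest to Mgp, Dpt, Serpine2, Coch and Igfbp7 (0.98 to 0.99). Mgp, matrix Gla protein, went from 725.8 TPM in lean to 30.8 TPM in lean control rats. Sox18 was nearest to Trim47, Zcchc24, Rasip1, Clec2g and Igfbp7 (0.89 to 0.90). Cd93 was nearest to S100a6 (0.94), Tgm2, Tagln, LOC100911515 and Cd74. Myh11 was nearest to Fgfbp1 (0.83), Wdr83os, Cd93, LOC498555 and LOC100911515, so that Cd93 was the marker whose levels over all rats were most like those of Myh11.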

How the data were processed

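Choroid plexus RNA of 20 rats was sequenced as paired-end reads of 150 bases (NEBNext Ultra RNA kit, Illumina NovaSeq). The authors mapped the reads with STAR 2.7.9a to Rnor_6.0 with Ensembl release 104, and the submitters' notes also list RSEM 1.3.3 and DESeq2 (listed as 3.16). Whether counting used strand is not given in the sources used here, so reads of an overlapping gene on the other strand could not be told apart. The authors deposited TPM, which sum to 1000000 per library, and FPKM, in which each library has all its TPM multiplied by 1 constant (0.921 to 1.22). Neither keeps the depth, so no counts were recovered and no count test was run.

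Groups and rat numbers follow the labels. Rats are separate animals, and no library was a copy of another (at most 0.473% identical values among 42 pairs of 1 group). Limma 3.58.1 (R 4.3.3) was run on log2(TPM + 0.1), keeping genes whose mean in the libraries compared reached 0.1 TPM, with a trend in eBayes, within the groups compared, and on all 20 libraries for the difference of the contrasts. The fit was tested on simulated data. Exact permutation tests were two-sided. Symbols came from the study's supplementary tables, which are shortened here. The members and marker lists were chosen with earlier results of these data known. Named were the 5 markers, the list genes with the highest mean (up to 4 per vessel list) and the 5 genes most like each marker. The other fibroblast, epithelial and erythrocyte genes were named after their values were seen. Gene sets were not tested. RefSeq sequences are of GRCr8 and not of the build of the files, so no coordinate was carried over. Tables and figures were made with Python 3.11.15, pandas 2.3.3, scipy 1.17.1 and matplotlib 3.10.9.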

Additional observations from a re-analysis of the deposited data

Results flagged for a closer look

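In groups of 4 to 10 rats, the highest or lowest value was compared with the rest of its group by Dixon's ratio at the 95% level. Of 60 groups checked over the 5 vessel markers and 10 other vessel genes, 4 had such a value, where chance gives about 1 in 20 groups, or 3.0. Cd93 in obese + TT rat 18 was at 0.60 TPM, against 0.98 to 1.04 TPM in the other 3 rats. Myh11 in lean control rat 16 was at 6.15 TPM, against 8.08 to 8.43 TPM in the other 3. Tpm2 in lean control rat 14 was at 54.6 TPM, against 40.0 to 42.0 TPM, and Tpm1 in lean rat 6 was at 41.4 TPM, against 50.3 to 52.8 TPM in the other 5 rats.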

How the results depend on the processing

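No paired analysis was possible because the labels number the rats 1 to 20, so that no groups share a number. Of 520 values of the 5 markers under other settings, 503 kept their direction and their side of the threshold, 14 had the opposite sign and 3 passed the threshold anew. No call of a marker was lost. The 3 were Myh11 in lean control against lean rats, lower by -0.43 after median ratio scaling, -0.54 after quantile normalization and -0.39 with FPKM, whose construction moves the median of all genes. The opposite signs arose when 1 rat was left out. Rgs5 in obese against lean rats ran from -0.076 to 0.074, and Cd93 there from -0.21 to 0.041. In obese + TT against lean control rats Rgs5 ran from -0.57 to 0.22 and Sox18 from -0.18 to 0.41. The difference of the contrasts ran from -0.56 to 0.24 for Rgs5 and, with no change of sign, from -1.05 to -0.46 for Sox18. With a pseudocount of 1 TPM, which shrinks low genes, it was -0.55 for Cd93. Leaving out 1 rat, the 12 fits of obese against lean rats called 0 to 1 genes, the 8 of obese + TT against lean control rats 0 to 25 (25 without lean control rat 13, 4 without rat 19, 3 without rat 15) and the 20 of the difference of the contrasts 0 to 14 (14 without rat 13, 4 without rat 20). None of the 5 markers was among the genes called there. With all 20 libraries in the fit, 3 genes were called between obese and lean and 6 between obese + TT and lean control rats. Median ratio scaling and FPKM each called 1 gene between obese and lean rats and 2 for the difference of the contrasts. For that difference quantile normalization called 11, and a minimum mean of 1 TPM and the robust option 1 each. The cause was not tested. The adjusted p of Sox18 in obese against lean rats lay between 0.108 and 0.405 over all settings. In obese + TT against lean control rats it lay between 0.179 and 0.741 for Cd93, 0.235 and 0.874 for Tagln, and 0.176 and 0.741 for Myh11. Depth is unknown, so the counting error of low genes such as Sox18 in the injected rats (0.62 to 2.35 TPM) cannot be given.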
